A study of Oryctolagus cuniculus with 2 samples.

Results

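The synaptic vesicle and active zone genes encode the proteins that dock, prime, fuse and recycle transmitter vesicles, and the scaffolds and adhesion molecules on both sides of the synaptic cleft. They were chosen as a list of 54 gene symbols, and 43 of them carried a probe set with 1 symbol in the platform annotation, of 15605 genes so annotated. The other 11 were not measured here: the vesicle genes SYP, RAB3A and SYNGR3, the calcium sensor SYT5, the complexins CPLX1 and CPLX3, the active zone genes UNC13A, RIMBP2 and ERC2, the dynamin DNM1 and the scaffold SHANK1. All 43 measured members passed a filter on low signals, which kept a gene when the higher of the arrays reached a log2 signal of 5.0. After that filter 12724 genes remained, and for a gene with several probe sets the one with the highest mean was read.

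Retinal vein occlusion (RVO) is the blockage of veins that drain the retina. In the rabbit model it was made by argon laser in the right eye of Dutch rabbits, and the left eyes were the controls. The control sample is labelled untreated retina and the other retinal vein occlusion, both taken at day 7, and the area hit by the laser was punched out before RNA extraction. Retinal RNA of each condition was hybridized to 1 Rabbit Gene 1.0 ST array, and the sources used here do not say whether both samples came from 1 animal or from pools. Values are log2 signals after RMA, which forces the signals of the arrays onto a common distribution, so a gene is read relative to the other genes of its array. A difference is RVO minus control, and 1 on this scale is 2-fold. As neither condition was replicated, no difference was tested, and genes are described by size alone.

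At a synapse, a vesicle fuses when the SNARE proteins of the vesicle and of the plasma membrane zip together, and a calcium sensor of the synaptotagmin family triggers that step. The active zone is the protein meshwork where this takes place. The retina has synapses of both a conventional type, made by amacrine cells, and a ribbon type, made by photoreceptors and bipolar cells, in which a plate-like ribbon holds vesicles near the membrane for continuous release. Ribbon synapses use syntaxin 3 and the complexins 3 and 4 where conventional synapses use syntaxin 1 and the complexins 1 and 2, and they lack synapsins, as known mainly from rodents.

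Synaptic genes were mostly lower in the RVO array by less than 2-fold. Of the 43 members, 37 had a difference below 0, or 86.0%, where 56.0% of all genes lay below 0. The median of the members was -0.37, with quartiles of -0.52 and -0.14, and that of all genes was -0.04, with quartiles of -0.20 and 0.15. A lower signal of more than 0.50 on the log2 scale, which is 1.41-fold, was found in 12 members, or 27.9%, and in 5.15% of all genes. No member was higher by as much, where 8.96% of all genes were. Beyond 2-fold, 1 member was lower and none was higher, while 0.479% of all genes were lower and 3.50% were higher. In bulk tissue, fewer cells of a type and less RNA per cell cannot be told apart. The 10th percentile of all genes was -0.38, and 21 of the 43 members lay at or under it.

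**Figure D1:**
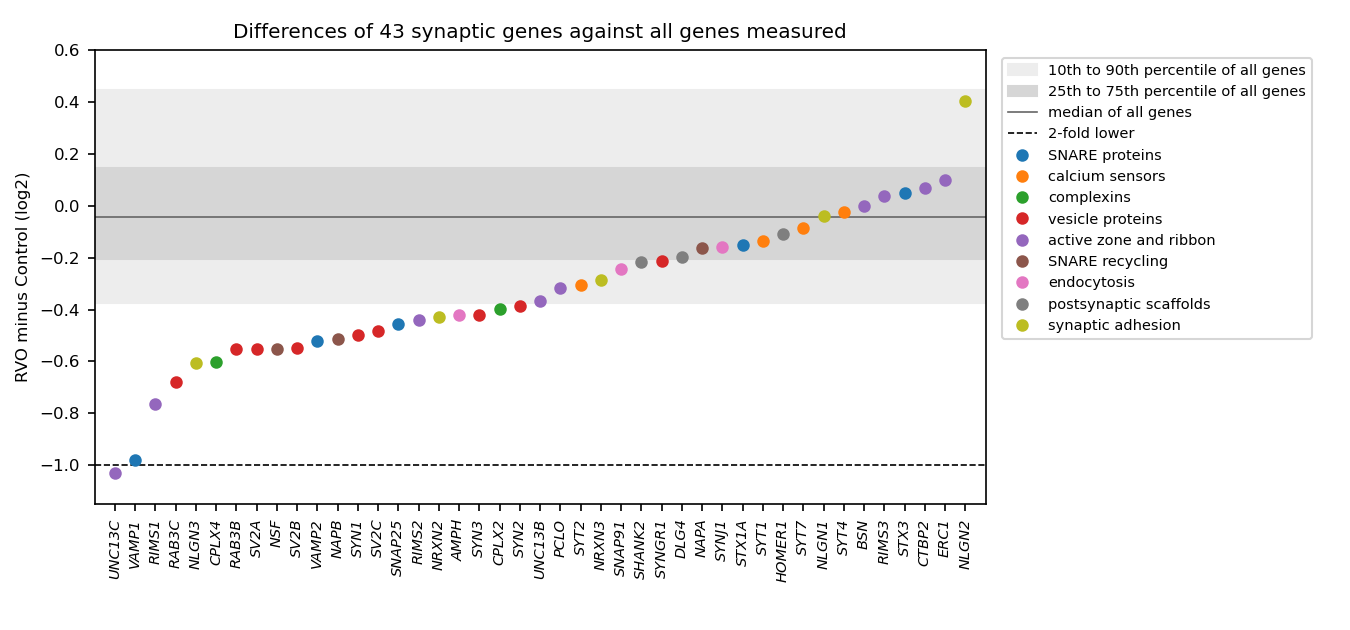
RVO minus control on the log2 scale for the 43 measured synaptic genes, ordered from lowest to highest and coloured by role, with 1 array per condition. The grey bands mark the central ranges of all 12724 genes: 21 members lie at or under the 10th percentile of -0.38, and NLGN2 is the only member at or above the 75th percentile of 0.15.

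The only error these arrays give is the disagreement between probe sets of a gene. Over the 118 genes read by several probe sets above the filter, the pooled SD of the difference was 0.19, which covers neither errors shared by an array nor animals. In 29 members the RVO signal was lower by more than this SD, in 1 it was higher by more, and in 13 the difference was within it. Among the members, PCLO was the only gene with several probe sets of its own. PCLO encodes piccolo, a giant scaffold of the active zone, and its 4 probe sets differed by -0.32, -0.37, -0.58 and -0.60, a mean of -0.47 ± 0.14 (SD, n = 4 probe sets). All 4 were lower in the RVO array, from 10.54 to 10.22, from 9.41 to 9.04, from 8.58 to 7.99 and from 6.03 to 5.44. The first of these was used for PCLO. UNC13B shared a further probe set with LOC100345551, which was not used, with signals of 4.59 and 4.17 and a difference of -0.43.

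**Figure D2:**
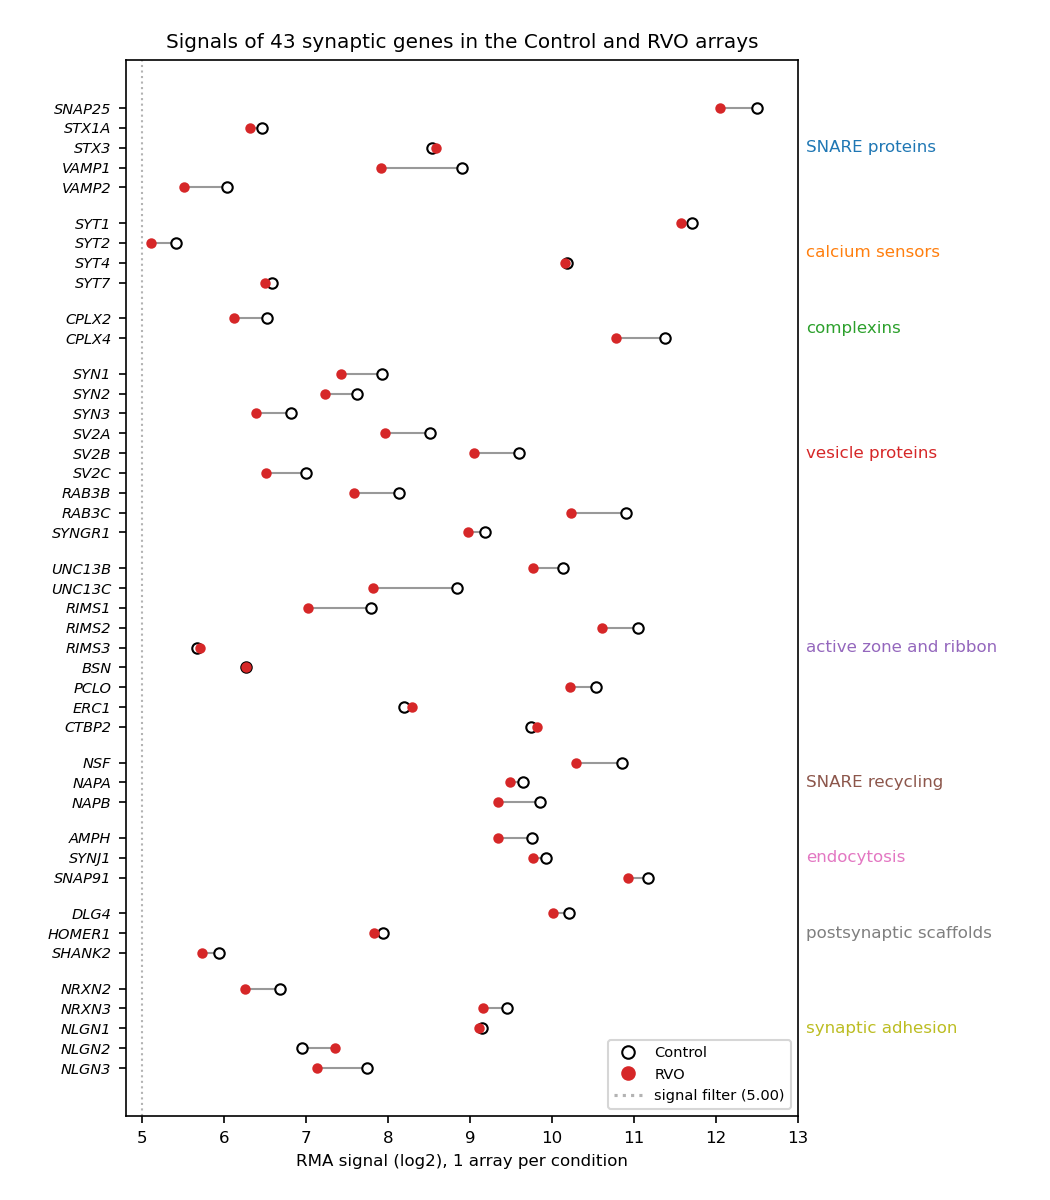
Log2 signals of the 43 measured synaptic genes in the control array (open circles) and the RVO array (red circles), grouped by role, with 1 array per condition. The RVO circle lies to the left of the control circle for 37 genes, and the signals of BSN coincide at 6.26.

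The SNARE proteins were all measured. VAMP1 and VAMP2, the synaptobrevins, are the SNAREs that sit on the vesicle. VAMP1 went from a log2 signal of 8.89 in the control to 7.91 in the RVO array, a difference of -0.98, or 0.507-fold. Only 0.511% of all genes had a lower difference than VAMP1, whose difference became -1.01, beyond 2-fold, when quantile normalization was run again. VAMP2 had 6.03 and 5.50, a difference of -0.52. SNAP25, the SNARE of the plasma membrane that pairs with syntaxin, had 12.50 and 12.05, a difference of -0.45. The syntaxins, which anchor the bundle in the plasma membrane, differed least. STX1A, the syntaxin of conventional synapses, had 6.46 and 6.31, a difference of -0.15, within the SD between probe sets. STX3, the syntaxin of ribbon synapses, had 8.53 and 8.58, a difference of 0.05.

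The SNARE bundle is taken apart after fusion by the ATPase NSF together with its adaptors, the alpha and beta SNAP proteins encoded by NAPA and NAPB. NSF had a control signal of 10.85 and an RVO signal of 10.30, a difference of -0.55. NAPB, the form enriched in brain, had 9.86 and 9.34, a difference of -0.51. NAPA, the broadly expressed form, had 9.64 and 9.48, a difference of -0.16.

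The calcium sensors had the median closest to 0 among the role groups, at -0.11 over 4 genes, and none was lower by over 0.50. SYT1, the main fast sensor for release, went from a log2 signal of 11.71 in the control to 11.58 in the RVO array. Its difference of -0.13 was within the SD between probe sets. SYT4, a synaptotagmin of dense-core vesicles, had 10.18 and 10.15, and SYT7, a slower sensor of high calcium affinity, had 6.58 and 6.50. SYT2, a fast sensor closely related to SYT1, had 5.41 and 5.11, a difference of -0.31. The RVO signal of SYT2 lay close to the filter, which leaves its difference uncertain.

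Complexins bind the assembled SNARE bundle and hold it ready for the calcium signal. CPLX4, a complexin of ribbon synapses, had a control signal of 11.38 and an RVO signal of 10.78, a difference of -0.60, or 0.658-fold. CPLX2, which belongs to conventional synapses, had 6.52 and 6.12, a difference of -0.40. Both were lower by more than the SD between probe sets.

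Proteins of the vesicle itself were the most uniform large group. All 9 measured genes were lower in the RVO array, with a median of -0.50 and a range from -0.68 to -0.21. RAB3B and RAB3C encode small GTPases that tether vesicles to the active zone. RAB3C had a control signal of 10.91 and an RVO signal of 10.22, a difference of -0.68, and RAB3B had 8.13 and 7.58, a difference of -0.55. The SV2 genes encode transporter-like glycoproteins of the vesicle membrane, and the 3 of them lay close together. SV2A had 8.51 and 7.95, SV2B had 9.59 and 9.04, and SV2C had 6.99 and 6.51, with differences of -0.55, -0.55 and -0.48. Synapsins tie vesicles of the reserve pool to each other. SYN1 had 7.92 and 7.42, SYN2 had 7.62 and 7.23, and SYN3 had 6.81 and 6.39. Their differences of -0.50, -0.39 and -0.42 fell within a narrow range. SYNGR1, a membrane protein of the vesicle with several membrane spans, had 9.18 and 8.97 and was the least lowered of the group, at -0.21. SYN1 and NAPB lay on either side of the limit of 0.50.

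The active zone genes were the most divided group, with differences from -1.03 to 0.10 over 9 genes. UNC13C, which encodes the priming factor Munc13-3, was the only member beyond 2-fold. It went from a log2 signal of 8.84 in the control to 7.81 in the RVO array, a difference of -1.03, or 0.490-fold. It stood 56th from the lowest among 12724 genes. UNC13B, which encodes the related factor Munc13-2, had 10.13 and 9.76, a difference of -0.37. RIM proteins recruit calcium channels and Munc13 to the site of release. RIMS1 had 7.79 and 7.02, a difference of -0.76, RIMS2 had 11.05 and 10.61, a difference of -0.44, and RIMS3, a short RIM, had 5.66 and 5.70, a difference of 0.04. The RIM genes thus differed unequally. In this group 4 genes did not have a lower signal in the RVO array. BSN, the giant scaffold bassoon that anchors the photoreceptor ribbon, had a deposited value of 6.26 in both arrays, identical to the last digit. Equal values were not particular to BSN, as 7122 of all 12724 genes lay below 0 and 5452 above it. ERC1, a broadly expressed scaffold of the ELKS family, had 8.20 and 8.30. CTBP2, which encodes both a nuclear corepressor and the ribbon protein RIBEYE, had 9.74 and 9.81, and which of its transcripts the probe set reads was not examined. With RIMS3, the differences of these genes lay between 0.00 and 0.10, all within the SD between probe sets.

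Genes of vesicle retrieval had a median of -0.24 over 3 genes. AMPH, or amphiphysin, which binds curved membranes and recruits dynamin, had a control signal of 9.76 and an RVO signal of 9.34, a difference of -0.42. SNAP91, the clathrin adaptor AP180 of neurons, had 11.17 and 10.93, a difference of -0.24. SYNJ1, a lipid phosphatase that helps the clathrin coat come off, had 9.93 and 9.77, a difference of -0.16.

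On the postsynaptic side the 3 scaffolds had a median of -0.20. DLG4, which encodes PSD-95, had 10.20 and 10.01, a difference of -0.20. HOMER1, which links metabotropic glutamate receptors to their calcium stores, had 7.93 and 7.82, a difference of -0.11. SHANK2, a scaffold beneath PSD-95, had 5.94 and 5.72, a difference of -0.22. Neurexins on the presynaptic membrane bind neuroligins on the postsynaptic one. NRXN2 had 6.68 and 6.25, a difference of -0.43, and NRXN3 had 9.45 and 9.16, a difference of -0.29. The neuroligins diverged. NLGN3 had a control signal of 7.74 and an RVO signal of 7.14, a difference of -0.61, and NLGN1, which is found at excitatory synapses, had 9.15 and 9.11, a difference of -0.04. NLGN2, the neuroligin of inhibitory synapses, had 6.95 and 7.35, a difference of 0.40. It was the only member higher by more than the SD between probe sets, and 88.8% of all genes had a lower difference.

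Members that mark the ribbon and the conventional synapse were set side by side. Of the ribbon members STX3, CPLX4 and CTBP2, CPLX4 was lower, at -0.60, while STX3 and CTBP2 lay at 0.05 and 0.07, a median of 0.05. Since the probe set of CTBP2 was not assigned to RIBEYE, the sign of this median depends on counting it, and without it the median was -0.28. The conventional members STX1A, SYN1, SYN2, SYN3 and CPLX2 were all below 0, with a median of -0.40 and a range from -0.50 to -0.15. Each group thus overlapped the other, and with 3 and 5 genes on 1 pair of arrays the difference between the medians was not tested.

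Relatives of the members in the same gene families were read as well. Of 22 such genes outside the list, 7 lay above 0, or 31.8%, and 15 below it, where 42.8% of all genes lay above 0. The families and the relatives named here were chosen after the values had been seen and so are a description only. VAMP3, the synaptobrevin of non-neuronal membranes, went from a log2 signal of 7.84 in the control to 8.56 in the RVO array, a difference of 0.72, against -0.98 for VAMP1 and -0.52 for VAMP2. VAMP4 and VAMP7, which serve the endosomal pathway, both differed by -0.02. SYNGR2, the synaptogyrin of non-neuronal cells, had 7.21 and 8.14, a difference of 0.93, against -0.21 for SYNGR1. SNAP29 and SNAP23, which take the part of SNAP25 in other fusion steps, differed by 0.50 and 0.05, against -0.45 for SNAP25. Most relatives outside the list were below 0. RIMS4 differed by -0.22 and UNC13D by -0.08. Among synaptotagmins outside the list, SYT13, SYT9 and SYT10 differed by -0.59, -0.43 and -0.33, below all the measured synaptotagmin members. SYT6, SYT11, SYT12 and SYT16 lay between -0.10 and -0.05, and only SYT17 lay above 0, at 0.07. RAB3D differed by -0.39, from signals of 5.03 and 4.63. The RVO signal of RAB3D lay under the filter, which leaves its difference uncertain. DLG2 and DLG3, relatives of PSD-95 in neurons, differed by -0.54 and -0.42, below DLG4 itself, while DLG1 differed by 0.14.

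**Figure D3:**
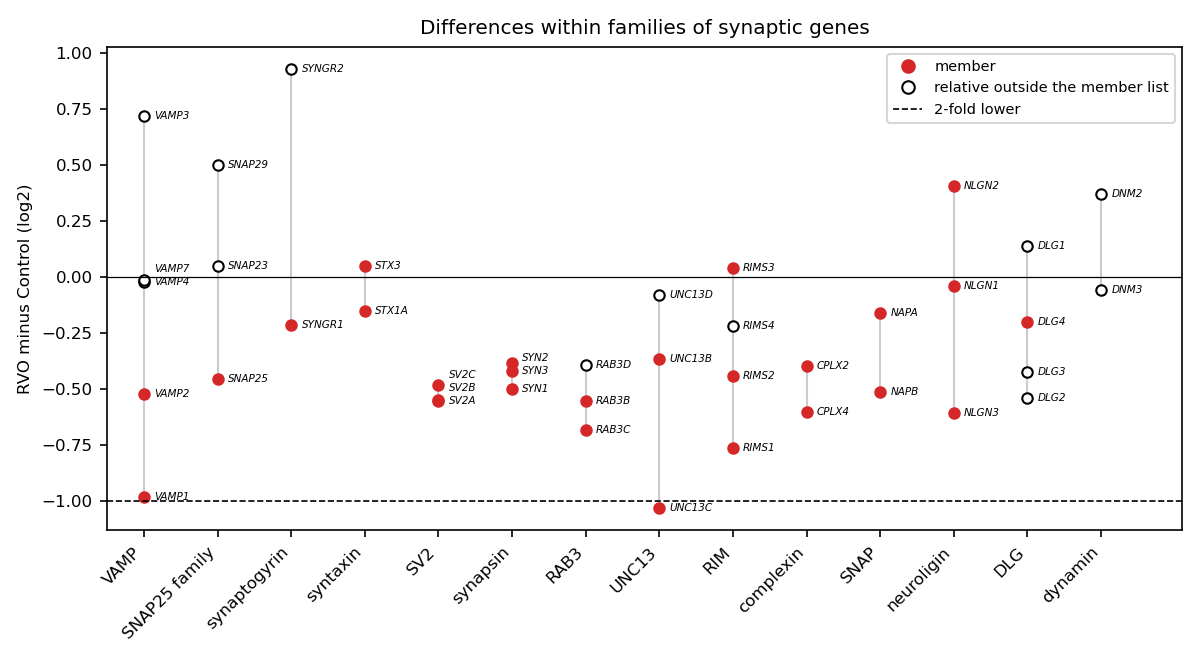
RVO minus control on the log2 scale for genes of the same family, with members of the list in red and relatives outside it as open circles. VAMP3, SNAP29 and SYNGR2 lie at 0.72, 0.50 and 0.93, above the members of their families, while VAMP4, VAMP7, RIMS4, RAB3D, UNC13D, DLG2, DLG3 and DNM3 lie below 0. Synaptotagmins are not drawn. In that family SYT13, SYT9 and SYT10, outside the list, lie at -0.59, -0.43 and -0.33, below the measured members.

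Other genes of the same pathway, which include the 22 relatives above, were read from lists of presynaptic, endocytic and postsynaptic genes. Of 85 such genes past the filter, 62 lay below 0, or 72.9%, where 56.0% of all genes did, with a median of -0.13. A difference lower than -0.50 was found in 6 of them, or 7.06%, near the 5.15% of all genes. The presynaptic list had a median of -0.12 over 43 genes, and 1 of them was beyond 2-fold. This was RPH3A, or rabphilin, an effector of RAB3, with a control signal of 8.67 and an RVO signal of 7.66, a difference of -1.01. SYT13 followed at -0.59 and SYT9 at -0.43. The highest of this list were SYNGR2 and VAMP3, followed by SNAP29. The endocytic list had a median of -0.06 over 21 genes, none beyond 2-fold. Its lowest genes were ITSN2, a scaffold of the clathrin pit, at -0.62, SH3GL3, an endophilin, at -0.50 and PACSIN1, a neuronal partner of dynamin, at -0.44. Its highest were STON2 at 0.70, FCHO2 at 0.43 and DNM2, the widely expressed dynamin, at 0.37. The postsynaptic and adhesion list had a median of -0.30 over 21 genes, of which 19 lay below 0 and none was beyond 2-fold. Its lowest were LRRTM3, an adhesion protein that binds neurexin, at -0.68, DLG2 at -0.54 and DLGAP1, a partner of PSD-95, at -0.51. Its highest were SHANK3 at 0.18, DLG1 at 0.14 and CADM1 at -0.0013.

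**Figure D4:**
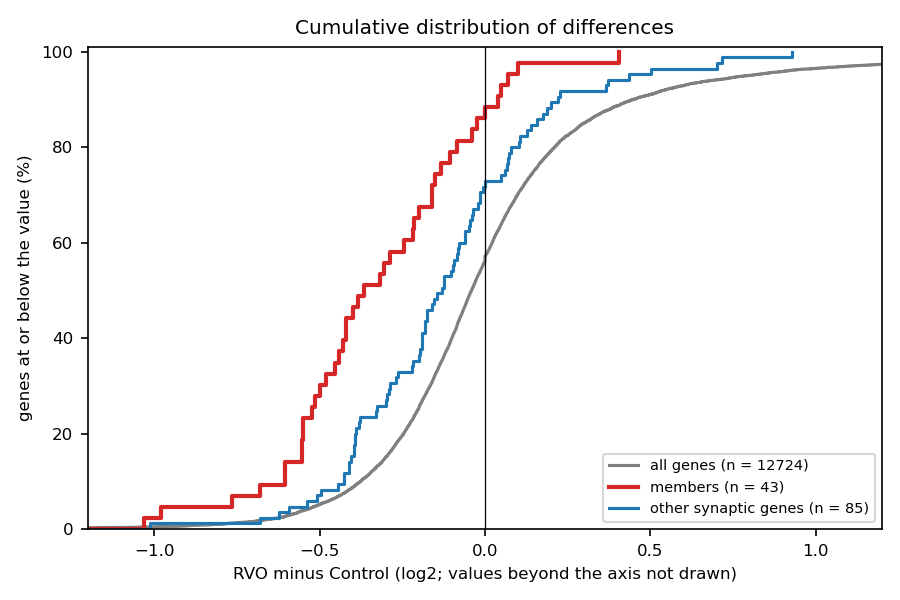
Share of genes at or below each value of RVO minus control, for the 43 members (red), 85 other synaptic genes (blue) and all 12724 genes past the filter (grey). The curve of the members lies to the left of the others through the middle of the range, with medians of -0.37, -0.13 and -0.04.

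Receptors and channels of neurons were read for comparison. Of 35 receptors for glutamate, GABA and glycine past the filter, 31 lay below 0, with a median of -0.48, and of 22 voltage-gated sodium and calcium channel genes, 19 lay below 0, with a median of -0.27. Of all genes, 56.0% lay below 0. The median of the members lay between those of the receptors and the channels. Differences between these lists were not tested.

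Markers of retinal neurons were lower along with the members. Lists were read for 5 neuron types, not for horizontal cells, and the lowest log2 signals in the control array were 11.40 for rods, 7.01 for cones, 5.86 for bipolar cells, 5.69 for amacrine cells and 5.32 for ganglion cells. All 4 rod, 7 cone, 8 bipolar cell, 7 amacrine cell and 10 ganglion cell markers past the filter were below 0. Their medians were -0.51, -0.42, -0.36, -0.35 and -0.96. The ganglion cell median lay between the differences of POU4F1 and POU4F3. The RVO signal of POU4F3 lay under the filter, which leaves its difference uncertain. The paper had already reported NRN1 and NEFH, of the same list, as strongly lower in these data. The ganglion cell list was therefore not independent of that result. The sum of the linear signals of the ganglion cell markers was 5879 in the control and 2521 in the RVO array. The sum of the members was 36383 and 28505, a ratio of 0.783, where that of all genes was 1.004. Such sums weigh genes of high signal most. Markers of Müller glia, the support cells of the retina, were split, with a median of 0.17 over 7 genes. RLBP1, GLUL and KCNJ10 differed by -0.67, -0.56 and -0.37, and SLC1A3, AQP4, VIM and DKK3 by 0.61, 0.59, 0.54 and 0.17. Housekeeping genes had a median of 0.00 over 8, with quartiles of -0.30 and 0.19. They ranged from -0.37 for GAPDH to 0.57 for ACTB. All 10 markers of macrophages and microglia and all 7 of skeletal muscle were higher. Of these, 9 and 7 were beyond 2-fold, where 3.50% of all genes were higher by as much. The summed signals of these lists went from 915 to 3920 and from 444 to 3887. No marker was at 0, and the lowest log2 signals in the control array were 4.60 for PTPRC and 4.83 for TNNC2 in these lists. Both lay under the filter there. They passed it only through the RVO array and so could count only as higher. The part of these cells in the differences of the synaptic genes was not tested.

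**Figure D5:**
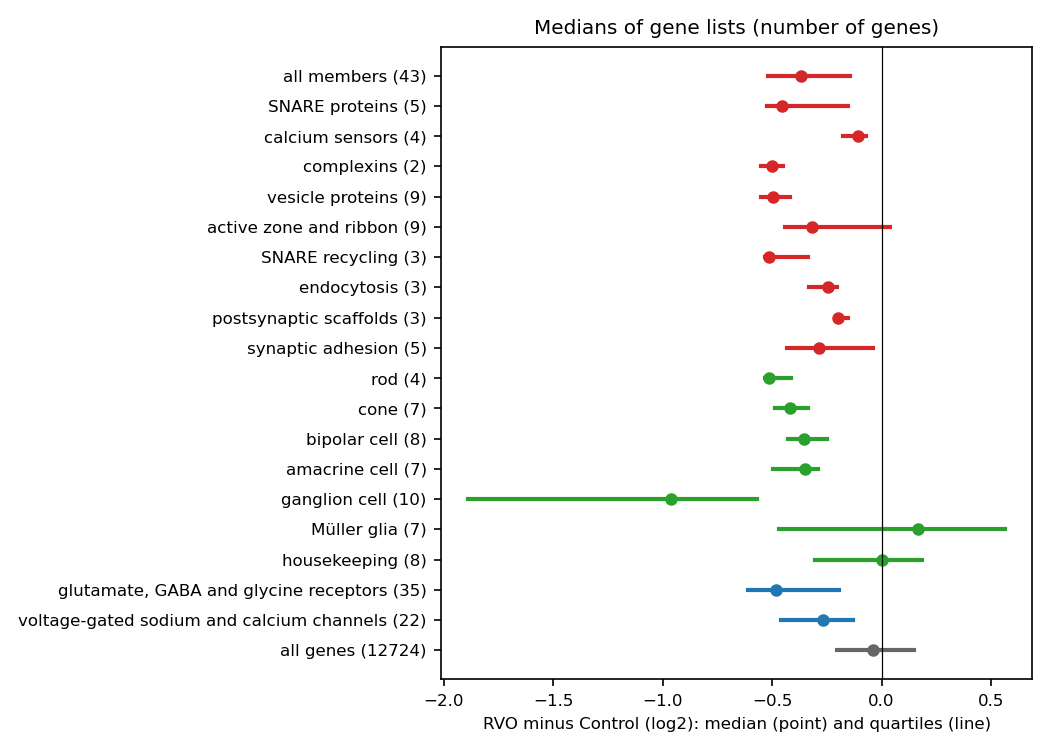
Median (point) and quartiles (line) of RVO minus control on the log2 scale for the members and their role groups (red), retinal cell markers and housekeeping genes (green), receptors and channels (blue) and all genes (grey), with the number of genes in parentheses. Role medians lie between -0.51 and -0.11, the ganglion cell markers at -0.96 and all genes at -0.04. Macrophage and muscle markers, at 2.23 and 3.50, are left out.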

How the data were processed

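Total RNA of 1 control and 1 RVO retina sample was measured on Rabbit Gene 1.0 ST arrays. The authors normalized them by RMA in R (version 3.6.0) and deposited log2 values. Which annotation package served is not given here. Of 26193 probe sets, 15816 carried 1 symbol in the platform annotation, 376 several and 10001 none, and genes were named only from the first. The gene identifiers of all 43 measured members carried the same symbol in the RefSeq table of assembly mOryCun1.1. Values were used as deposited. The signal filter of 5.0 and the 2-fold limit follow the methods of the study. Members and lists were chosen with earlier results of these data known. Both signals were given for members that differed by over 0.50, for the extremes of each role group and for the ribbon and conventional members, and most others were added. Of other synaptic genes, those beyond 2-fold and the 3 highest and lowest were named. Arrays give no depth, and their number limits the precision. Alternatives were no filter, a filter at 6.0, centring, repeated quantile normalization, removal of the trend with signal by lowess, the mean over probe sets and a 1.5-fold limit. Python 3.11.15, pandas 2.3.3 and statsmodels 0.14.6 were used.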

Additional observations from a re-analysis of the deposited data

How the results depend on the processing

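The count of members beyond 2-fold was 1 lower and 0 higher as deposited. It was 2 lower with quantile normalization repeated, where VAMP1 reached -1.01, and 6 lower and 0 higher at a 1.5-fold limit, which 3.03% of all genes passed downwards and 7.25% upwards. Members below 0 numbered 37 of 43 in all settings but the filter at 6.0, where 35 of 40 were below 0. The median of the members ranged from -0.39 to -0.32, while that of all genes ranged from -0.04 to 0.01 and the share of all genes below 0 was 56.0% as deposited and 48.4% once the signal-dependent trend was taken out. The median of the ribbon members turned from 0.05 to -0.28 without CTBP2, an alternative chosen after seeing the data. Under the other settings no median of a role group, of the ribbon and conventional members or of the other synaptic genes changed sign. None moved by as much as 0.19, the SD between probe sets. The same holds for each member in 255 comparisons, BSN at 0.00 having no sign as deposited. Many of these comparisons could not differ. The filter settings leave the difference of a member as it is, the mean over probe sets alters only PCLO, and centring shifts all genes alike. No paired analysis was possible because each condition has 1 array. For the same reason no array could be left out.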
